A study of Mus musculus with 18 samples.

Results

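The numbered zinc finger protein genes of the mouse carry symbols made of Zfp and a number. Of the 50600 gene IDs in the count table, 364 were protein-coding genes with such a symbol, Zfp36 left aside, and 351 of them had at least 1 count. The 191 genes described here were selected on their mean CPM (read pair counts scaled to a common library total) of 3 or more over all 18 libraries. That level is a measured value, so it is given as a description and supports nothing, and Zfp651 was already known as a gene that rises with defactinib. The genes nearest the limit were Zfp938 and Zfp97 below it, at 2.80 and 2.82 CPM, and Zfp316 and Zfp931 above it, at 3.03 and 3.17 CPM. The most abundant members were Zfp106 at 240 CPM, Zfp207 at 137 CPM, Zfp91 at 122 CPM, Zfp706 at 100.3 CPM, Zfp217 at 90.7 CPM and Zfp710 at 84.7 CPM. Of the other 173 genes, 121 still entered the tests and are given as a group further on.

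The libraries came from bone marrow-derived macrophages (BMDMs) of WT mice and of IRF5-/- mice (labelled IRF5ko, here IRF5 KO), grown with recombinant GM-CSF for 8 days. Cells received defactinib, an inhibitor of the kinases PYK2 and FAK, at 3.5 µM or the vehicle DMSO for 1 h, and then LPS at 100 ng/ml for 2 h. The 6 groups of 3 libraries each were unstimulated, LPS DMSO and LPS defactinib cells of either genotype. The labels, and the study's description of the experiment, place the unstimulated libraries with the vehicle DMSO at 0 h of LPS, while the columns of the count table mark them as untreated. No group received defactinib without LPS, so defactinib alone cannot be told apart from defactinib with LPS. The labels do not say whether the 3 libraries of a group came from separate mice or cultures, and p-values measure the spread between libraries only. The spread of each gene was estimated over all 18 libraries together. Standard errors and p-values in WT therefore also hold the spread within IRF5 KO LPS DMSO, whose 3 libraries do not stand together, as described below. Between 39282181 and 61949143 read pairs were counted per library, and the members together held 0.189% to 0.501% of them. Counting error is largest for members at a few CPM, and the spread between libraries exceeded it.

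Zinc finger proteins of this kind bind DNA, or in some cases RNA or other proteins, through repeated fingers in which a pair of cysteines and a pair of histidines hold a zinc ion. Many mammalian members carry an N-terminal KRAB box, which recruits the corepressor TRIM28 and with it histone methylation over transposable elements and some genes. KRAB zinc finger genes lie in clusters that arose by local duplication and differ in finger number between close relatives. Members without a KRAB box include transcription factors, parts of chromatin complexes, and proteins that act on RNA, ribosomes or ubiquitin. In macrophages most numbered Zfp genes have no assigned function, and their RNAs are mostly of low abundance.

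The repeat that defines the family was read from the coding sequences of GENCODE M21 as the exact spacing of cysteine and histidine codons (2 residues between the cysteines, 12 between the pairs, 3 or 4 between the histidines). For the 3 members with the largest change after defactinib in WT, a single finger is shown here as an example of the repeat, with the cysteine and histidine codons in capitals. They are residues 561 to 581 of Zfp651 (finger 4 of 7), residues 405 to 425 of Zfp324 (finger 5 of 9) and residues 245 to 265 of Zfp260 (finger 7 of 12).
Zfp651: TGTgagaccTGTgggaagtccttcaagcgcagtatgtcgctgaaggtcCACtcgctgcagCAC
Zfp324: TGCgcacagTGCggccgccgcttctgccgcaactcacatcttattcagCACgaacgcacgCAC
Zfp260: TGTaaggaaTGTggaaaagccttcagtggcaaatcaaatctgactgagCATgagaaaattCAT
The median member had 10 such fingers and the highest number was 31. No finger of this exact spacing was found in 15 members, which include Zfp106 and Zfp638. A KRAB box was found in 99 members by a profile search and in 92 it was not found.

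The bases before the gene start are printed for Zfp692, which rose, and for 4 of the 6 members that fell most, to show promoters from both ends of the first comparison. Promoter sequences are those of RefSeq on GRCm38.p6, of 250 bases that end at the base before the annotated start, written in the direction of transcription. Capitals mark CCAAT in either orientation (ATTGG on the reverse strand), and the windows are chr11:58306819-58307068 (+) for Zfp692, chr7:12965588-12965837 (+) for Zfp324, chr7:127376051-127376300 (-) for Zfp747, chr17:23564227-23564476 (-) for Zfp213 and chr7:29815822-29816071 (+) for Zfp790.
Zfp692: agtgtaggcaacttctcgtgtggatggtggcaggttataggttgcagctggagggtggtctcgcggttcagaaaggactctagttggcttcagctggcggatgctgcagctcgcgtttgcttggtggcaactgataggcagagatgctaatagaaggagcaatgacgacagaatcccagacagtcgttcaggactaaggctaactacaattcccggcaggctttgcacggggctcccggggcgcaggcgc
Zfp324: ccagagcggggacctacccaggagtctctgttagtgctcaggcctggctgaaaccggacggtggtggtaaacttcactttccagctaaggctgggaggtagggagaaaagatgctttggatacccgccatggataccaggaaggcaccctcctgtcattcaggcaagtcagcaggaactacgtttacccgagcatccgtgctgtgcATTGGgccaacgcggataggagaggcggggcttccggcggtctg
Zfp747: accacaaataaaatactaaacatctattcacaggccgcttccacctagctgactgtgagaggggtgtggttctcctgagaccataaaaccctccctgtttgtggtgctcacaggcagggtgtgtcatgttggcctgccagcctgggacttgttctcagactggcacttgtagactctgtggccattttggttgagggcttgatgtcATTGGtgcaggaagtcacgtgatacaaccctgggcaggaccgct
Zfp213: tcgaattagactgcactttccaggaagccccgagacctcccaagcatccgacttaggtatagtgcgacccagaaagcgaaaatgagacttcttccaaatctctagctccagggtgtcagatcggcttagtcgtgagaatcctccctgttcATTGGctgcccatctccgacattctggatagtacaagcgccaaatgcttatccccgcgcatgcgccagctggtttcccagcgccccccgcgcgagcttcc
Zfp790: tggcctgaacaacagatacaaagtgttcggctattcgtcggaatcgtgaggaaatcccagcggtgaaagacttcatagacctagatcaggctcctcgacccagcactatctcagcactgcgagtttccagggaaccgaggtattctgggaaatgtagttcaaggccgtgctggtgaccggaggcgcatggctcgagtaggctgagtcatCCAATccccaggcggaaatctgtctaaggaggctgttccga
CCAAT stood in the windows of the 4 printed members that fell, but not in that of Zfp260, which fell too, and it stood in those of Zfp651 and Zfp652, which rose. RefSeq promoters were matched for 158 member genes, with 192 start sites, and were compared with all 32851 promoters of 27025 genes. CCAAT was found in 42.2% of the members' windows and in 33.8% of all. Among members that were lower with defactinib in WT it was in 49.0% of 104 windows, and among the other members in 34.1% of 88. The GC box GGGCGG was in 47.9% of members' windows and in 32.7% of all, and TATAAA in 5.73% and 12.4%. A motif match is a description of these letters, counted on both strands, and the ends of CCAAT and GGGCGG can share up to 2 bases. Members' promoters held a median of 13 CpG dinucleotides against 6 in all promoters, with a median GC content of 56.4% against 52.4%.

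Before the comparisons, the libraries of IRF5 KO LPS DMSO have to be described, since they do not stand together. The median change of the 191 members from unstimulated cells, on the log2 scale, was −1.06 and −1.01 in replicates 1 and 2 of this group and −0.13 in replicate 3. The 3 WT LPS DMSO libraries were at −0.27, −0.19 and −0.31, the WT LPS defactinib libraries at −1.13, −1.45 and −1.02, and the IRF5 KO LPS defactinib libraries at −0.87, −0.90 and −0.89. Replicates 1 and 2 of IRF5 KO LPS DMSO thus lay at the level of libraries labelled defactinib, and replicate 3 lay above the WT LPS DMSO libraries. The noncoding RNA Gm26917 divided the libraries in the same way. It took 2.56% and 2.57% of counts in replicates 1 and 2 and 0.0125% in replicate 3. Its share was at most 0.0122% in the other LPS libraries with DMSO and between 1.06% and 4.15% in the 6 libraries with defactinib. The part of Gm26917 in the members' levels was not tested. Counts of members that rest on IRF5 KO LPS DMSO, and the members named from them, are therefore given in 3 settings. These are with all 3 libraries, without replicate 3, and with replicate 3 as the only library of its group, an alternative chosen after the data were seen. Counts of cell markers are given with all 3 libraries only. Irf5 itself was counted at 335 to 396 CPM in unstimulated IRF5 KO and at 587 to 650 CPM in unstimulated WT libraries, and after LPS with DMSO at 344 to 435 and 434 to 475 CPM. After LPS with defactinib it was at 353 to 392 CPM in IRF5 KO, above 2 of the 3 WT libraries, which were at 213, 234 and 379 CPM. Counts over the whole gene do not show which exons are deleted, and the group names used here are those of the labels. Whether the 3 libraries labelled IRF5 KO LPS DMSO all carry the right label is not known here, and each value that uses this group, for defactinib or LPS in IRF5 KO, between genotypes after LPS or for the interaction, holds only as far as those labels do.

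**Figure D1:**
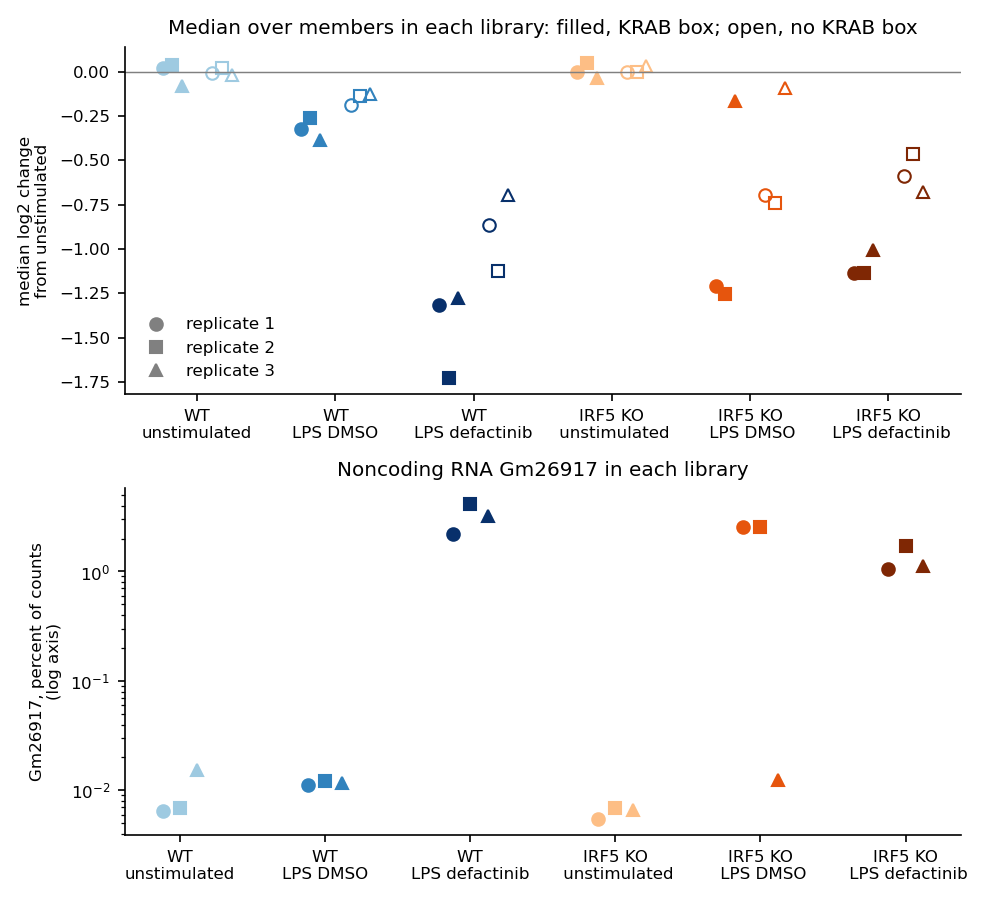
The upper panel plots, for each of the 18 libraries (marker shape gives the replicate), the median log2 change from the unstimulated mean of the same genotype, filled for 99 members with a KRAB box and open for 92 without, and the lower panel plots the percent of counts taken by Gm26917 on a log axis. In IRF5 KO LPS DMSO replicates 1 and 2 lie near the defactinib libraries in both panels, and replicate 3 does not.

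The cultures carried the markers of macrophages. The summed level of the macrophage markers (Adgre1, Csf1r, Cd68, Itgam, Lyz2, Mertk and Fcgr1) was 9366 to 18768 CPM, and dendritic cell markers summed to 1935 to 2934 CPM. Neutrophil markers summed to 58.0 to 236 CPM, mast cell and basophil markers to 10.01 to 102 CPM, and markers of T, B and NK cells to at most 5.36, 0.945 and 0.389 CPM. Markers of other cells moved in the comparisons of the members. The sum of mast cell and basophil markers in WT was 10.8 to 11.7 CPM unstimulated, 45.5 to 58.2 CPM with LPS and DMSO and 10.01 to 34.8 CPM with LPS and defactinib. With defactinib 2 of the 6 tested were lower (median −1.15), where the background was 18.6% of all tested genes lower and 10.4% higher. Of 5 dendritic cell markers tested 2 were lower with defactinib in WT (median 0.03), and the 1 T cell marker tested was lower too, at −3.61. The 1 NK cell marker tested was higher, at 2.79, and of 7 macrophage markers 1 was higher and 1 lower. With LPS in WT 6 of 7 neutrophil markers were higher (median 1.22), beside 11.6% of all tested genes. So were 2 of 6 markers of mast cells and basophils and 2 of 5 of dendritic cells. The T cell marker was higher there too (4.39), and the NK cell marker was lower (−2.45). With LPS in IRF5 KO 3 of 7 neutrophil markers (median 1.0) and 2 of 6 of mast cells and basophils (median 1.16) were higher. Mast cell and basophil markers were lower in WT than in IRF5 KO for 2 of 6 in unstimulated cells (median −1.05, beside 3.51% of all tested genes). After LPS with DMSO 2 of 6 were lower in WT (median −0.77, beside 11.8%). The B cell marker was lower there too (−3.71), and the T cell marker was higher (3.14, beside 14%). After LPS with defactinib against unstimulated cells, 3 of 7 neutrophil markers were higher in WT (beside 9.10% of all tested genes) and 2 of 7 in IRF5 KO (beside 7.85%). Of 5 dendritic cell markers 1 was higher and 1 lower in WT. In IRF5 KO 2 of the 5 were higher, as was the B cell marker (4.28). From counts of a whole culture, fewer cells of a type and less RNA per cell cannot be told apart. Protein-coding genes held between 89.1% and 91.6% of counts with LPS and defactinib in WT, and at least 95.9% with LPS and DMSO. In IRF5 KO LPS DMSO the share was 90.5% in replicates 1 and 2 and 95.6% in replicate 3. Mitochondrial genes held between 1.05% and 1.26% with LPS and defactinib in WT and at most 0.913% with LPS and DMSO. In IRF5 KO protein-coding genes held 92.5% to 93.3% with LPS and defactinib and 95.8% to 96.1% unstimulated. Mitochondrial genes held 0.835% to 0.926% and 0.477% to 0.540% in these 2 groups. The part of these shifts in the results was not tested.

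The first comparison asks what the kinase inhibitor did to the family in LPS-stimulated WT cells. With defactinib, 96 of the 191 members fell by more than 2-fold and 8 rose (edgeR's quasi-likelihood test, Benjamini-Hochberg adjusted p below 0.05 over the 15663 genes tested). The lower calls were 50.3% of members, beside a background of 18.6% of all tested genes and 20.3% of the 9894 protein-coding genes at the same mean level or above. The higher calls were 4.19% of members, beside a background of 10.4%. The median log2 fold change was −1.05 over members and 0.09 over all tested genes, and the lower quartile of the members was −2.0 and the upper quartile −0.25.

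The WT LPS DMSO and WT LPS defactinib libraries did not overlap for 151 members (79.1%, beside 62.5% of all tested genes), among them all 104 that were called. Without the fold threshold 122 members were lower and 21 higher, beside 28.6% and 28.4% of all tested genes. A member whose mean reached 3 CPM only through the group where it was highest had to differ between groups. This held for 7 members, whose mean over the other 15 libraries was under 3 CPM. The highest group was WT LPS DMSO for Zfp558 and unstimulated IRF5 KO for Zfp60, Zfp316, Zfp157, Zfp688, Zfp953 and Zfp40, and differences of these members that use those groups are descriptions. Without Zfp651, 7 members were higher. Scaling by library size alone, without the TMM factors that adjust for a few abundant RNAs, moved the median of all tested genes from 0.09 to 0.29 and the members' median to −0.85, with 82 lower and 8 higher beside 15.5% and 15% of all tested genes.

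**Figure D2:**
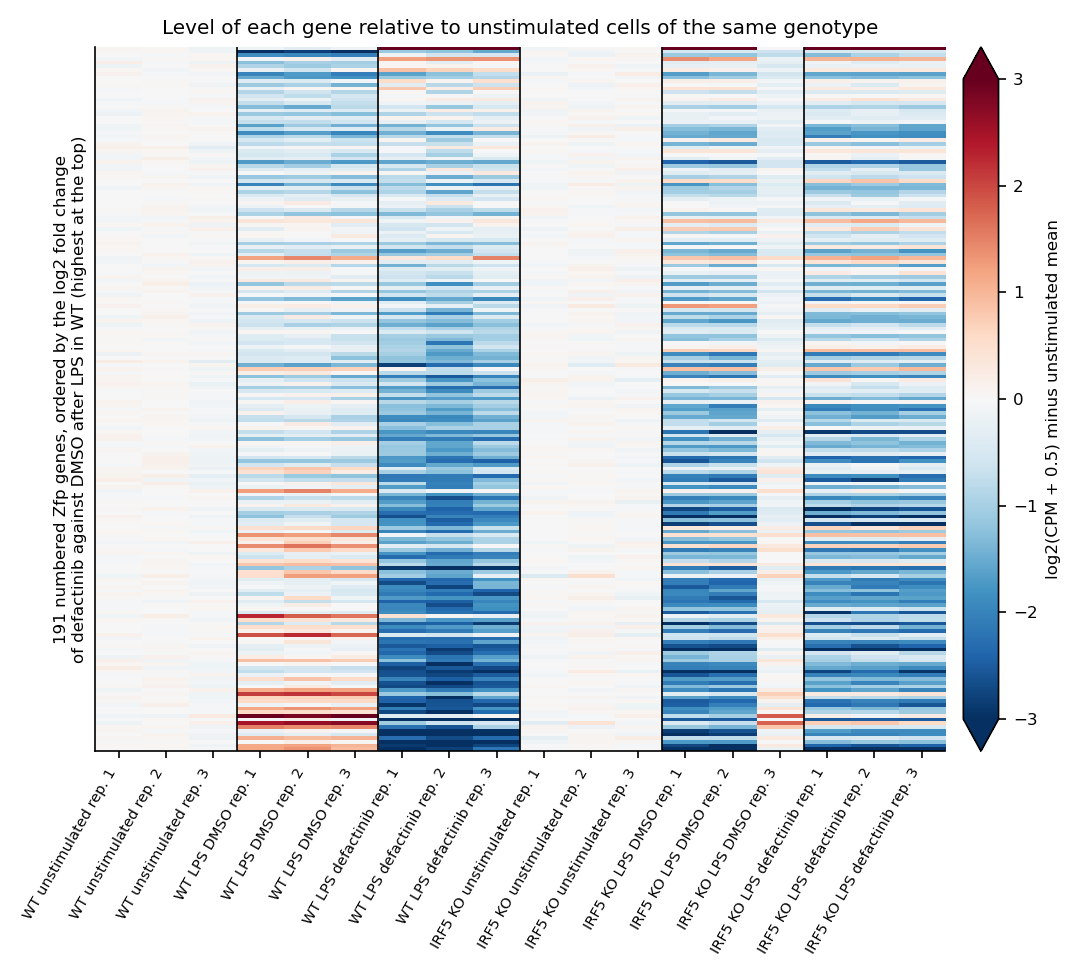
Each line is 1 of the 191 members and each column 1 library, coloured by log2(CPM + 0.5) minus the unstimulated mean of the same genotype, with members ordered by their log2 fold change with defactinib in LPS-stimulated WT cells. Most members are blue in WT LPS defactinib, in IRF5 KO LPS defactinib and in replicates 1 and 2 of IRF5 KO LPS DMSO, while replicate 3 of IRF5 KO LPS DMSO is pale over most members.

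Zfp651 (ENSMUSG00000013419, chr9:121759330-121771742 of mm10, + strand), a gene without a KRAB box that is also known as Zbtb47, was the member that rose most. It was counted at 0.440, 0.332 and 0.457 CPM in WT LPS DMSO and at 9.97, 10.2 and 8.63 CPM in WT LPS defactinib (CPM of single libraries are normalised by TMM). Unstimulated WT cells had 0.599, 0.575 and 0.433 CPM, so every WT library without defactinib was under 1 CPM. Since Zfp651 was chosen for this rise, its log2 fold change of 4.54 (standard error 0.82) is a description. In IRF5 KO it was at 0.296, 0.365 and 0.374 CPM unstimulated and at 7.58, 9.58 and 7.46 CPM after LPS with defactinib. That difference of 4.57 (standard error 0.82) is a description too, since Zfp651 reached the mean level for selection through the libraries in which it was high. In IRF5 KO LPS DMSO it was at 12 and 13.5 CPM in replicates 1 and 2 and at 0.333 CPM in replicate 3, which is the division seen for the median of all members.

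The other members that rose with defactinib fell into those that LPS had lowered and those that it had not. Zfp652, a transcriptional repressor that works with the corepressor CBFA2T3, was at 6.0, 8.31 and 6.76 CPM in WT LPS DMSO and at 28.0, 25.9 and 20.7 CPM with defactinib. The difference was 1.82 (standard error 0.13, adjusted p = 3.41e-08), and both groups lay below the 55.7 to 63.8 CPM of unstimulated WT cells. Zfp532, which has no KRAB box, went from 2.46, 2.30 and 2.08 CPM to 9.30, 6.86 and 7.09 CPM, a difference of 1.76 (standard error 0.18, adjusted p = 1.69e-06). Zfp946 and Zfp950, KRAB genes of unknown function, rose by 1.14 (standard error 0.14, adjusted p = 9.74e-06) and 1.13 (standard error 0.13, adjusted p = 5.89e-06), and their libraries with defactinib overlapped those of unstimulated WT cells. Zfp692, which binds the promoter of a gluconeogenic gene, was at 3.20, 3.79 and 2.67 CPM after LPS with DMSO and at 8.77, 9.31 and 9.73 CPM with defactinib, above the 3.20 to 3.61 CPM of unstimulated cells. Its difference was 1.53 (standard error 0.29, adjusted p = 0.000423).

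Among the members that fell, Zfp324 (ENSMUSG00000004500, chr7:12965838-12974236, + strand), a KRAB gene, changed most. It was at 16.3, 18.4 and 13.7 CPM in WT LPS DMSO and at 0.325, 0.577 and 1.18 CPM in WT LPS defactinib, below the 6.72 to 7.24 CPM of unstimulated cells. The difference was −4.54 (standard error 0.83, adjusted p = 0.000342). Zfp260 (ENSMUSG00000049421, chr7:30094777-30107622, + strand), a transcription factor of heart muscle without a KRAB box, was at 43.6, 45.6 and 39.7 CPM with DMSO and at 2.21, 1.52 and 2.47 CPM with defactinib. Unstimulated cells had 18 to 20.2 CPM, so that the defactinib libraries again lay below both other WT groups. The difference was −4.38 (standard error 0.72, adjusted p = 0.00014). Zfp747, whose promoter is printed above, was at 8.02, 9.21 and 8.16 CPM with DMSO and at 0.372, 0.409 and 0.539 CPM with defactinib, a difference of −4.26 (standard error 0.44, adjusted p = 1.39e-06). Zfp213 was at 13.1, 12 and 12.6 CPM with DMSO and at 0.814, 0.505 and 0.796 CPM with defactinib, a difference of −4.15 (standard error 0.31, adjusted p = 5.69e-08). The KRAB genes Zfp87 and Zfp790 fell by 3.98 (standard error 0.70, adjusted p = 0.000243) and 3.76 (standard error 0.62, adjusted p = 0.000141). Zfp87 ranged over 6.35 to 7.49 CPM with DMSO and 0.256 to 0.553 CPM with defactinib, and Zfp790 over 10.2 to 12.6 CPM and 0.649 to 1.05 CPM.

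**Figure D3:**
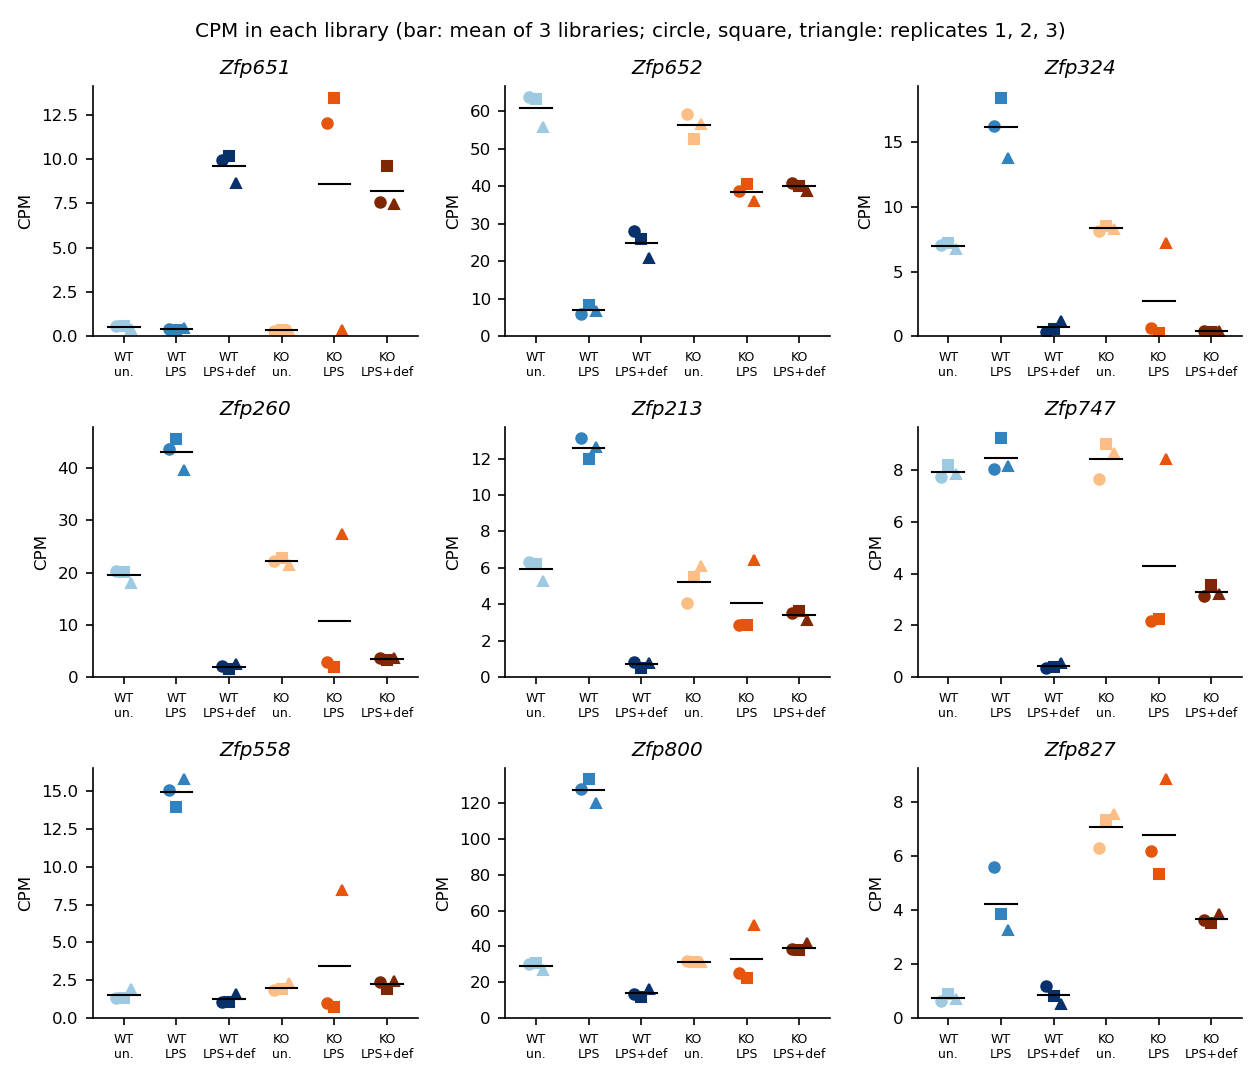
CPM of 9 members in each library, with points for single libraries, bars for the mean of 3, and groups in the order unstimulated (un.), LPS with DMSO (LPS) and LPS with defactinib (LPS+def) for WT and then IRF5 KO. Zfp651 stands near 0 in every WT library without defactinib, and Zfp324, Zfp260, Zfp213 and Zfp747 stand lowest in WT LPS defactinib among the WT groups.

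Members with a known role were described by the lists they belong to. Of the 20 members listed as transcription and chromatin factors, 9 fell with defactinib in WT, 1 rose (Zfp652) and 10 were not called, with a median of −0.82. The lower calls are 45% of this list, beside the background of 18.6%, and the higher calls 5.0%, beside 10.4%. Zfp281, a factor of pluripotent cells, was at 28.8, 28.8 and 28.7 CPM with DMSO and at 3.12, 2.67 and 3.31 CPM with defactinib, a difference of −3.24 (standard error 0.54, adjusted p = 0.000142). Zfp217, part of a corepressor complex with CtBP and one of the most abundant members, was at 130, 139 and 135 CPM with DMSO and at 41.2, 25.1 and 40.3 CPM with defactinib. Its difference was −1.92 (standard error 0.14, adjusted p = 3.65e-08), and the defactinib libraries lay below unstimulated cells at 69.3 to 75.6 CPM. Zfp143, which binds many promoters and takes part in chromatin looping, fell by 2.18 (standard error 0.22, adjusted p = 1.3e-06), from 16.8 to 17.6 CPM with DMSO to 3.03 to 4.34 CPM. Zfp131, a BTB domain transcription factor, fell by 1.77 (standard error 0.12, adjusted p = 2.26e-08). The others that fell were Zfp827, Zfp318, Zfp687, Zfp638 and Zfp516, by 2.30, 2.18, 1.98, 1.41 and 1.21. Not called were Zfp148 at 0.17, Zfp292 at 0.26, Zfp219 at −0.08 and Zfp384 at −0.39, among others.

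Of 11 members listed as factors of RNA, ribosomes or ubiquitin, 2 fell and none rose, with a median of −0.29. The 2 are 18.2% of the list, which is near the background of 18.6%. They were Zfp830, which takes part in splicing, and Zfp451, a SUMO ligase, at −2.58 (adjusted p = 0.00119) and −1.02 (adjusted p = 0.000147). Zfp598, the ubiquitin ligase that marks collided ribosomes, was at 60.1, 71.2 and 56.3 CPM with DMSO and at 32.9, 37.9 and 73.6 CPM with defactinib, groups that overlapped (−0.38, adjusted p = 0.141). Zfp106, an RNA-binding protein and the most abundant member, was at 167, 166 and 203 CPM with DMSO and at 321, 232 and 315 CPM with defactinib. That difference of 0.69 (adjusted p = 0.000162) did not reach the fold threshold. Among 4 KRAB members with known repressed targets, 3 fell and 1 was not called, too few to set against the background of 18.6%. Zfp568, a repressor of a placental Igf2 promoter, fell by 2.68 (adjusted p = 0.00013). Zfp961 and Zfp809, repressors of retroviral sequences, fell by 1.77 (adjusted p = 8.13e-05) and 1.13 (adjusted p = 0.00682), and Zfp932 was at 0.53, under the fold threshold. Zfp809 was at 6.79, 7.78 and 5.49 CPM with DMSO and at 2.74, 2.57 and 3.88 CPM with defactinib, while unstimulated WT cells had 10.6 to 12 CPM.

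Finger number and the KRAB box, which the selection did not use, were set against the calls as a description. With defactinib in WT, 56 of 99 members with a KRAB box were lower (median −1.21, 4 higher) and 40 of 92 without one (median −0.69, 4 higher). By finger number, lower calls were 4 of 15 with none of the exact spacing, 10 of 33 with 1 to 5, 33 of 56 with 6 to 10, 29 of 58 with 11 to 15 and 20 of 29 with 16 or more. Within members of 6 fingers or more, 50 of 90 with a KRAB box (median −1.20) and 32 of 53 without one (median −1.21) were lower. Members without a KRAB box and with under 6 fingers had 8 of 39 lower (median −0.30), a share of 20.5% that lies near the background of 18.6%. The share called lower also differed with the mean level. Of members at a mean of 3 to 10 CPM 55 of 98 were lower, at 10 to 30 CPM 32 of 67, and at 30 CPM or more 9 of 26. Members called lower had a median of 11 fingers, a protein of 622 residues and an annotated exon length of 4741 bases, and the others 9 fingers, 583 residues and 4938 bases. The differences between these classes were not tested, since genes are not independent replicates.

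**Figure D4:**
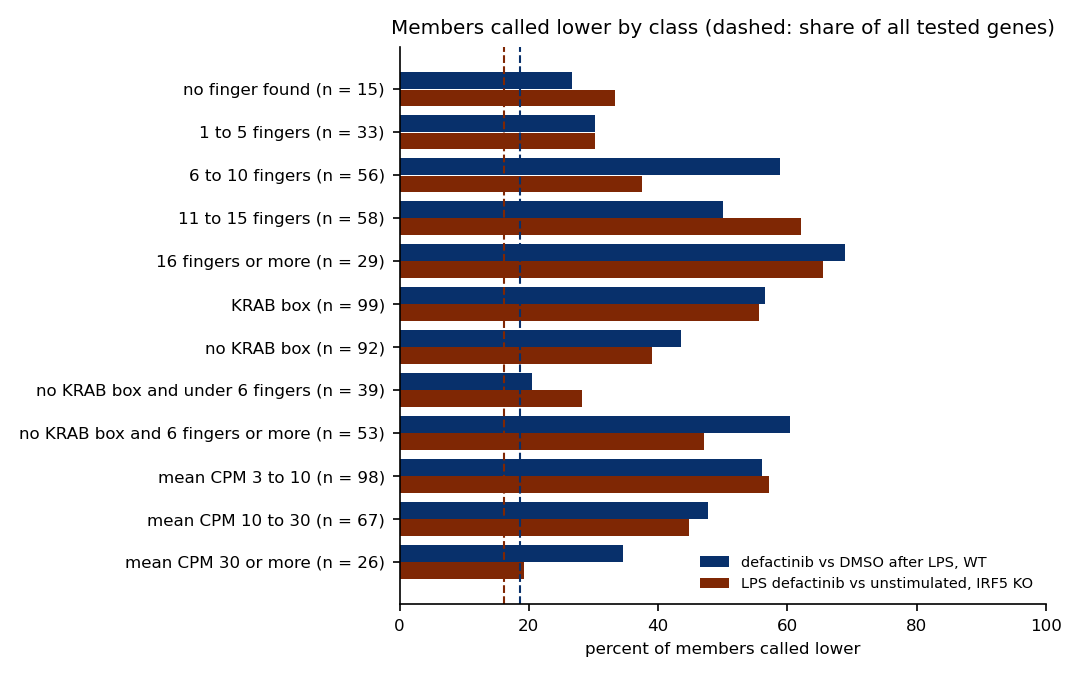
Bars give the percent of members in each class (number of members in brackets) called lower with defactinib against DMSO after LPS in WT and with LPS defactinib against unstimulated cells in IRF5 KO, and dashed lines give the share of all tested genes, 18.6% and 16.2%. The classes of 6 fingers or more without a KRAB box and of 16 fingers or more stand above the class without a KRAB box and under 6 fingers in both comparisons.

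The genome position of members was described next. With gaps of at most 500000 bases, 16 clusters of 3 or more members held 85 members, of which 54 were lower with defactinib in WT, and of the 106 members outside them 42 were, beside 18.6% of all tested genes. On chromosome 7, 32 of 43 members were lower (median −2.05), beside 20.05% of all genes tested there, and on chromosome 17, 11 of 26 were, beside 16.8%. The cluster at chr7:29768552-30169750 of mm10 holds Zfp84, Zfp790, Zfp74, Zfp568, Zfp260, Zfp382 and Zfp146, and all 7 fell (median −2.68), while 2 of the 7 other protein-coding genes tested there did (median −0.44). At chr7:127233061-127885996, with Zfp747, 7 of 9 members were lower, against 5 of 19 other protein-coding genes (median −0.50). At chr13:67312998-67729119, with Zfp87 and Zfp456, 7 of 8 members were lower, and there 4 of 6 other protein-coding genes were too (median −1.92). The largest cluster, chr17:21008941-23564226, holds 16 members, all with a KRAB box, of which 5 were lower (median −0.75) and 1, Zfp946, was higher, and of 7 other protein-coding genes tested there 3 were lower and 1 higher (median −0.98). In the 4 clusters given here the share of members called lower thus ranged from 5 of 16 to 7 of 7, and neighbours inside a cluster could move in opposite directions. Reads from near-identical relatives were kept only where they aligned uniquely, so that levels of the closest copies are uncertain.

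The second question was how defactinib with LPS left the family relative to unstimulated cells, a difference that uses no level of an LPS DMSO library, although the spread was estimated over all 18 libraries. In WT, 117 members were lower and 2 higher, with a median of −1.28 over members and 0.04 over all tested genes. The background was 15.8% of tested genes lower (17.8% of protein-coding genes at 3 CPM or more) and 9.10% higher, against 61.3% and 1.05% of members. In IRF5 KO, 91 members were lower and 4 higher, with medians of −0.88 and 0.00. There the background was 16.2% lower (16.3% of protein-coding genes at 3 CPM or more) and 7.85% higher, against 47.6% and 2.09% of members. The comparisons in WT and IRF5 KO share no library. The members lower in both numbered 82, which is 70.1% of the 117 and 90.1% of the 91. Over all tested genes the 1514 lower in both were 61.3% and 59.7% of the lists. The log2 fold changes of the 191 members had a Pearson r of 0.73, and those of all 15663 tested genes 0.75. Members share libraries and normalisation, so these correlations are descriptions.

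The members that fell most against unstimulated cells in WT were Zfp87, Zfp747, Zfp790, Zfp46, Zfp770 and Zfp111. Zfp46, a KRAB gene, was at 14.6, 15.3 and 14.1 CPM in unstimulated WT cells and at 0.976, 1.32 and 1.44 CPM after LPS with defactinib, and the difference was −3.56 (standard error 0.57, adjusted p = 0.000176). Its levels in IRF5 KO were 15.4, 15 and 15.1 CPM and 2.21, 2.33 and 2.26 CPM, with a difference of −2.74 (standard error 0.54, adjusted p = 0.000842). Both genotypes thus showed the fall without overlap between groups. Zfp770 and Zfp111 were at −3.52 (standard error 0.73, adjusted p = 0.0012) and −3.42 (standard error 0.49, adjusted p = 6.34e-05) in WT, and at −2.95 and −2.66 in IRF5 KO. Zfp87 was at −4.39 (adjusted p = 0.00018) in WT and at −2.16 (adjusted p = 0.00773) in IRF5 KO, and Zfp747 at −4.16 (adjusted p = 3.88e-06) and −1.35 (adjusted p = 0.00587). For defactinib against DMSO, the difference between genotypes is tested further on.

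In IRF5 KO the largest falls against unstimulated cells were those of Zfp324, Zfp626, Zfp60, Zfp953, Zfp397 and Zfp329. Zfp324 was at 8.16, 8.56 and 8.28 CPM unstimulated and at 0.418, 0.336 and 0.425 CPM with LPS and defactinib, a difference of −4.4 (standard error 0.85, adjusted p = 0.000777). Zfp626, a KRAB gene of 17 fingers, was at 14, 14.9 and 13.8 CPM and at 0.784, 0.828 and 0.637 CPM, a difference of −4.24 (standard error 0.73, adjusted p = 0.000376). Zfp60, Zfp953, Zfp397 and Zfp329 were at −3.91, −3.12, −3.09 and −3.09, values that for Zfp60 and Zfp953 are descriptions. The 4 members that rose were Zfp651, Zfp692, Zfp598 and Zfp622, of which the last 2 act at the ribosome. Zfp692 was at 4.02, 4.48 and 4.4 CPM unstimulated and at 9.25, 9.47 and 9.29 CPM (1.12, standard error 0.29, adjusted p = 0.0042). Zfp598 was at 31.4, 30.5 and 32.7 CPM and at 65.6, 74.0 and 63.2 CPM (1.10, standard error 0.22, adjusted p = 0.000763). Zfp622, a factor of large ribosomal subunit maturation, was at 48.5, 49.5 and 52.0 CPM and at 94.8, 112 and 98.4 CPM (1.03, standard error 0.15, adjusted p = 0.000121), a value that dropped below the fold threshold, to 0.96, without IRF5 KO LPS defactinib replicate 2. With a KRAB box 55 of 99 members were lower in IRF5 KO (median −1.13) and without one 36 of 92 (median −0.59), and in WT 76 of 99 (median −1.48) and 41 of 92 (median −0.86). Within members of 6 fingers or more, 51 of 90 with a KRAB box and 25 of 53 without one were lower in IRF5 KO, and 69 of 90 and 31 of 53 in WT.

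**Figure D5:**
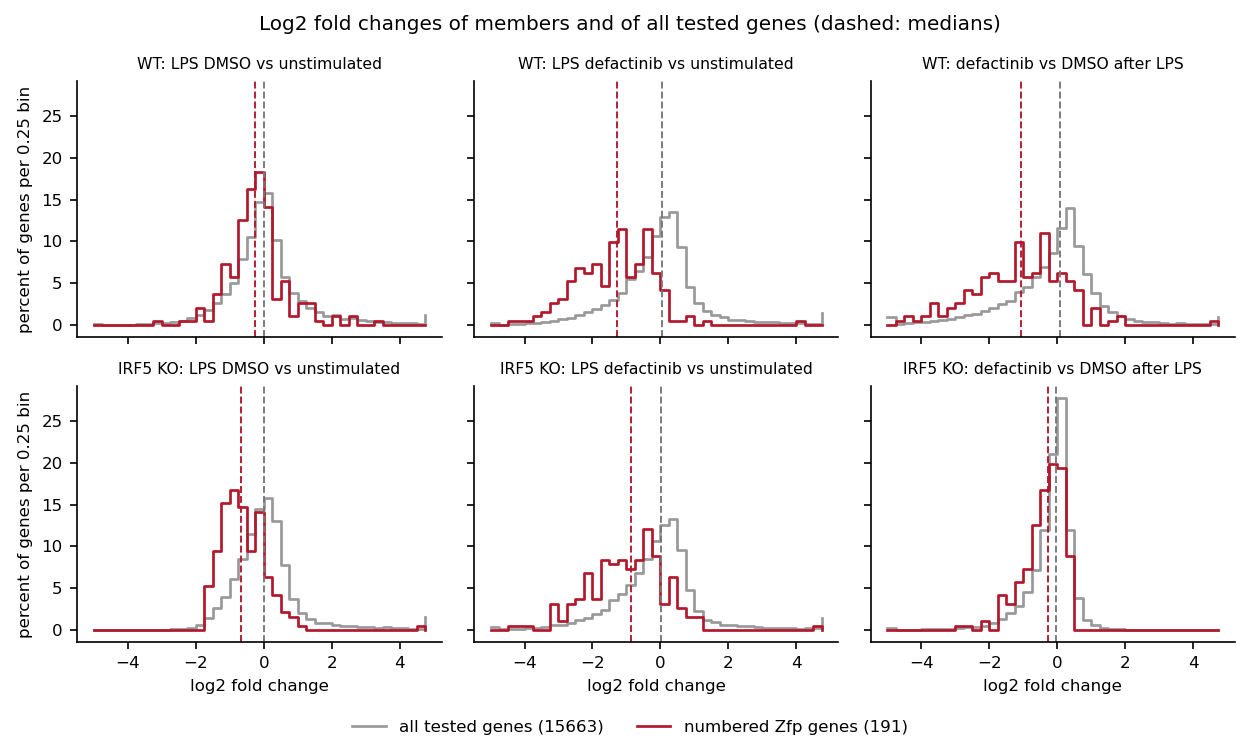
Percent of genes in bins of 0.25 of the log2 fold change for 191 members and 15663 tested genes in 6 comparisons, with dashed lines at the medians and larger changes counted in the end bins. The members' median lies below that of all tested genes in each panel, at −1.28 against 0.04 for LPS defactinib against unstimulated cells in WT and at −0.88 against 0.00 in IRF5 KO.

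LPS with DMSO alone moved fewer members in WT. Against unstimulated cells 28 members were lower and 14 higher, with a median of −0.25 over members and −0.00 over all tested genes. These are 14.7% and 7.33% of members, beside a background of 9.71% lower and 11.6% higher. With library size alone as the scaling, which moved the median of all tested genes to −0.38, 47 were lower and 6 higher beside 18.1% and 8.27% of all tested genes. Of members with a KRAB box 20 of 99 were lower and 4 higher, and of those without 8 of 92 were lower and 10 higher. Members raised by LPS included Zfp558, Zfp296, Zfp827, Zfp800, Zfp945 and Zfp456.

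Zfp558, a KRAB gene, was at 1.37, 1.34 and 1.96 CPM in unstimulated WT cells, at 15.1, 13.9 and 15.8 CPM after LPS with DMSO and at 1.07, 1.11 and 1.62 CPM after LPS with defactinib. Its value with LPS was 3.26 (standard error 0.63), a description, since it passed the level of 3 CPM only through WT LPS DMSO. Zfp296, a partner of pluripotency factors, was at 3.88, 4.41 and 4.91 CPM unstimulated, 26.5, 30.1 and 32.1 CPM with LPS and DMSO and 1.81, 2.62 and 2.95 CPM with LPS and defactinib, and rose by 2.75 with LPS (standard error 0.52, adjusted p = 0.000532). Zfp800, the most abundant of these 6, was at 30.1, 30.9 and 26.9 CPM, 128, 133 and 120 CPM, and 13.3, 11.8 and 16.5 CPM in the same groups, and rose by 2.11 (standard error 0.23, adjusted p = 2.85e-06). For all 3 genes the DMSO libraries after LPS stood alone, and the defactinib libraries lay at or below the unstimulated ones. Zfp945 was raised by 2.05 (adjusted p = 1.48e-05) and Zfp456 by 1.53 (adjusted p = 0.0375), and the call for Zfp456 was lost without a filter on low counts (adjusted p = 0.103) and with library size alone (adjusted p = 0.106). The comparison of defactinib with DMSO uses the same WT LPS DMSO libraries, and its values for Zfp558, Zfp296, Zfp800, Zfp945 and Zfp456 were −3.56, −3.59, −3.20, −2.46 and −3.72.

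The members that LPS lowered most in WT were Zfp652, Zfp316, Zfp532, Zfp101, Zfp398 and Zfp251. Zfp652 fell from 63.8, 63.3 and 55.7 CPM to 6.0, 8.31 and 6.76 CPM, by 3.12 (standard error 0.13, adjusted p = 2.33e-10). Zfp532 fell from 10.1, 9.89 and 10.7 CPM to 2.46, 2.30 and 2.08 CPM, by 2.16 (standard error 0.19, adjusted p = 2.81e-07). For both genes the defactinib libraries lay between the DMSO libraries and unstimulated cells. Zfp101, Zfp398 and Zfp251, KRAB genes, were at −1.98, −1.93 and −1.85 after LPS with DMSO and at −1.96, −1.63 and −1.72 after LPS with defactinib, each against the same unstimulated libraries. Zfp316 was at −2.39 and −1.35.

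In IRF5 KO, LPS with DMSO lowered 40 members and raised 2, with a median of −0.66 over members and 0.01 over all tested genes. The background was 6.28% of tested genes lower and 7.07% higher. The result depended on the libraries used. Fitting only the groups compared left 0 lower and 0 higher (0.0353% and 1.05% of tested genes), and leaving out replicate 1 or 2 left 4 or 3 lower (1.47% of tested genes in both). Without replicate 3, 105 members were lower and 3 higher with a median of −1.15 (background 16.6% and 9.64%). With replicate 3 as the only library of its group, 0 were lower and 2 higher with a median of −0.13 (background 0.0419% and 2.66%), and the spread was taken from the other groups. The 6 members with the largest falls without overlap were Zfp329, Zfp626, Zfp251, Zfp157, Zfp65 and Zfp61, at −1.75, −1.73, −1.67, −1.65, −1.57 and −1.55. Without replicate 3 they were at −3.42, −3.96, −2.88, −2.72, −2.86 and −2.65, and with replicate 3 alone at −0.51, −0.37, −0.58, −0.63, −0.45 and −0.50, none of them called. For Zfp157 these values are descriptions. Zfp329 was at 10.1, 10.1 and 7.65 CPM unstimulated and at 0.727, 1.01 and 6.42 CPM after LPS.

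The effect of defactinib in IRF5 KO cells rests on the same group. With all 3 DMSO libraries, 3 members were lower and 0 higher (background 0.760% and 0.160%), with a median of −0.27 over members and −0.04 over all tested genes. At an unadjusted p below 0.05 there were 56 members (29.3%, beside 23.3% of all tested genes). DESeq2 called 15 members lower and 0 higher, beside 3.37% and 0.294% of all genes with an adjusted p. The 3 were Zfp467, Zfp687 and Zfp182, at −1.57, −1.11 and −1.03. None of these calls was kept without replicate 3 (−0.73, −0.49 and −0.62) or with a replicate block, and with replicate 3 alone the values were −2.48, −1.88 and −1.63. Zfp467 was at 2.11, 2.39 and 7.41 CPM with DMSO and at 1.22, 1.68 and 1.14 CPM with defactinib (adjusted p = 0.0357). Without replicate 3, 0 members were lower and 6 higher (background 0.842% and 0.611%, median 0.12). With replicate 3 alone, 86 were lower and 2 higher (background 14.6% and 4.63%, median −0.90). In single libraries Zfp324 was at 0.606, 0.292 and 7.18 CPM with DMSO and at 0.418, 0.336 and 0.425 CPM with defactinib. Its difference was −2.79 with all libraries (adjusted p = 0.0741), −0.20 without replicate 3 (adjusted p = 0.82) and −4.20 with replicate 3 alone (adjusted p = 8.83e-08).

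Before stimulation few members differed between the genotypes. Between unstimulated WT and IRF5 KO cells 1 member was called, Zfp827, which was lower in WT, and none was higher (background 3.51% lower and 3.80% higher). At an unadjusted p below 0.05 there were 12 members (6.28%, beside 26.4% of all tested genes), and the median was −0.11. Zfp827, which recruits the NuRD complex to telomeres, was at 0.636, 0.896 and 0.701 CPM in WT and at 6.31, 7.33 and 7.57 CPM in IRF5 KO. Zfp827 reached the mean level for selection mainly through IRF5 KO libraries, so this difference of −3.24 (standard error 0.29) is a description. After LPS with DMSO it rose in WT to 5.59, 3.86 and 3.28 CPM (2.5, standard error 0.28, adjusted p = 4.01e-06), while in IRF5 KO it was at 6.2, 5.33 and 8.84 CPM (−0.06, adjusted p = 0.878, −0.29 without replicate 3 and 0.34 with it alone). With defactinib the WT libraries were at 1.21, 0.818 and 0.539 CPM and the IRF5 KO libraries at 3.62, 3.52 and 3.85 CPM. Zfp827 was thus higher in every IRF5 KO library than in every WT library of the same treatment but for 1 WT LPS DMSO library, which overlapped.

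After LPS with DMSO, 26 members were higher and 11 lower in WT than in IRF5 KO (background 14% and 11.8%), with a median of 0.27 over members and −0.05 over all tested genes. With library size alone 18 were higher and 19 lower (9.42% and 9.95%, beside 10.4% and 16.8% of all tested genes), and the members' median turned to −0.02 while that of all tested genes moved to −0.30. Fitting only the groups compared left 6 higher (10.7% of tested genes), and leaving out replicate 1 of IRF5 KO LPS DMSO left 16 (11.2%). Without replicate 3, 76 were higher and 11 lower (background 20.7% and 13.8%, median 0.65). With replicate 3 alone, 5 were higher and 25 lower (background 7.59% and 8.36%, median −0.23). Zfp652 was lower in WT under each of these, at 6.0, 8.31 and 6.76 CPM against 38.6, 40.6 and 36.1 CPM, with differences of −2.45 (standard error 0.13, adjusted p = 7.21e-09), −2.5 without replicate 3 and −2.38 with replicate 3 alone. Zfp369, a KRAB gene, was at 1.85, 2.05 and 1.37 CPM in WT and 5.72, 5.51 and 4.62 CPM in IRF5 KO, with −1.58 (adjusted p = 1.73e-05), −1.67 and −1.41. Zfp800 and Zfp945 were higher in WT in the 3 settings, at 1.93, 2.41 and 1.27 for Zfp800 and at 2.11, 2.60 and 1.44 for Zfp945. Zfp324 was at 2.56 (adjusted p = 0.0095), 5.14 and 1.15, and Zfp296, Zfp558, Zfp260 and Zfp319, at 2.12, 2.10, 1.99 and 1.99 with all libraries, were at 3.50, 4.05, 4.12 and 3.23 without replicate 3 and at 0.95, 0.79, 0.64 and 0.87 with replicate 3 alone, below the fold threshold. Zfp316, Zfp946, Zfp362 and Zfp944 were lower in WT, at −1.27, −1.17, −1.17 and −1.14. Without replicate 3 they were at −0.77, −1.17, −1.13 and −0.83, where Zfp316 and Zfp944 lost the call, and with replicate 3 alone at −1.94, −1.20, −1.26 and −1.61.

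An interaction term tested whether defactinib acted unequally in WT and IRF5 KO cells, and a negative value means a lower log2 fold change in WT. With all libraries 63 members were negative and 11 positive (background 12.3% and 10.5%), with a median of −0.67 over members and 0.12 over all tested genes. With library size alone, which moved the median of all tested genes to 0.45, 38 were negative and 19 positive beside 8.18% and 18.2% of all tested genes, with a members' median of −0.32. Without replicate 3 of IRF5 KO LPS DMSO there were 103 negative and 7 positive (background 18.8% and 12.8%), and with replicate 3 alone 40 and 23 (background 9.22% and 9.89%, median −0.09). Zfp213 and Zfp800 were called in the 3 settings, at −3.90, −4.41 and −3.21 and at −3.44, −3.92 and −2.77. Zfp217, at −1.91, −1.87 and −1.99, and Zfp131, at −2.20, −2.21 and −2.15, hardly moved between settings. For these 2 abundant members the 3 IRF5 KO LPS DMSO libraries lay close together, at 115, 116 and 104 CPM and at 31.4, 31.7 and 32.1 CPM. Zfp217 was at 112, 111 and 109 CPM and Zfp131 at 43.1, 42.3 and 43.1 CPM in IRF5 KO LPS defactinib, with differences from DMSO of −0.01 and 0.43 that were not called. Zfp652 was at 1.77 (adjusted p = 2.4e-06), 1.81 and 1.71. Zfp651 was at 4.60 with all libraries and at −0.04 with replicate 3 alone, values that are descriptions for the reason given above.

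The protein that KRAB members recruit, and its partners, were mostly not called in the comparison of defactinib with DMSO in WT. Of 22 tested genes of the TRIM28 corepressor and the HUSH complex, 1 fell (Morc3, −2.53) and 1 rose (Chd3, 1.02), with a median of 0.02. The background there was 18.6% of all tested genes lower and 10.4% higher. Trim28 itself was at 0.19 (adjusted p = 0.0302), below the fold threshold. Against unstimulated cells, after LPS with defactinib, 6 of the 22 were lower in WT and 7 in IRF5 KO, beside 15.8% and 16.2% of all tested genes. These included Setdb1, the histone methyltransferase of the complex, at −1.23 and −2.01.

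Related zinc finger genes outside the selection are set here beside the background of 18.6% of all tested genes lower and 10.4% higher with defactinib in WT. Of 32 ZBTB genes at 3 CPM or more, 21 fell, none rose and 11 were not called, with a median of −1.68. Zbtb7a, a transcriptional repressor, was at −3.95 (adjusted p = 5.5e-06). Of 13 ZSCAN and ZKSCAN genes at that level, 10 fell, none rose and 3 were not called, with a median of −1.50, and Zscan29 was at −3.57 (adjusted p = 0.00014). Of the 121 numbered Zfp genes under 3 CPM that were tested, 51 fell, 9 rose and 61 were not called, with a median of −1.14. Zfp36, which encodes the RNA-destabilising protein tristetraprolin with a different kind of finger and was left out by the rule, rose by 2.08 (adjusted p = 0.0015), while its relatives Zfp36l1 and Zfp36l2 were at 0.03 and −1.75. Of 8 abundant nuclear noncoding RNAs, 6 rose and 1 fell (Neat1, −1.50), with Gm26917 at 7.88 and Malat1 at 1.90.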

How the data were processed

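RNA of 18 BMDM libraries was sequenced as paired-end reads. Per the labels and the study's methods, the authors aligned reads to mm10 with STAR and deposited raw counts of read pairs per gene from featureCounts 1.6.3, which kept uniquely mapped pairs (mapping quality 255) on the strand opposite to the gene (setting 2). Counts of close relatives therefore miss shared reads.

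Members were protein-coding Zfp-number genes at a mean CPM of 3 or more. The members, gene lists and tests were chosen with earlier results of these data known. Symbols and coding sequences came from GENCODE M21, promoters from RefSeq (GRCm38.p6), and KRAB boxes from a profile of 42 residues built on 112 seed sequences and searched with pyhmmer 0.12.3 (E-value 0.001).

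All 18 libraries were fitted together in R 4.3.3 with edgeR 4.0.16, using TMM factors, its default filter on low counts and the robust quasi-likelihood test across 15663 genes, with Benjamini-Hochberg adjustment over all of them. A gene was called at an adjusted p below 0.05 and a change of more than 2-fold. Fold changes are log2 values, and standard errors come from the same fit. The per-library medians use log2(CPM + 0.5). The test was run on simulated counts for defactinib against DMSO in WT only, with a common spread for all genes and no library set apart. That check does not cover a group as divided as IRF5 KO LPS DMSO. Libraries of a group differed by more than counting error (chi-square per gene of 2.33 to 441), so the spread between libraries sets the precision. Named members were, per comparison, up to 6 called higher and 6 called lower, taken by size where groups did not overlap (for the interaction the 12 largest), with Zfp651, the most abundant members and those with a known role.

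The alternatives were DESeq2 1.42.0, DESeq2 size factors, library size alone, no filter, no fold threshold, other CPM floors, only the groups compared, a replicate block and leaving out each library. Chosen after seeing the data, replicate 3 was also used as the only IRF5 KO LPS DMSO library.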

Additional observations from a re-analysis of the deposited data

Results flagged for a closer look

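For 12 members the change with defactinib in WT differed from that in IRF5 KO by the interaction test of edgeR, and these were the largest such differences. For Zfp651, chosen for its rise with defactinib, and for Zfp558, which passed the level of 3 CPM only through WT LPS DMSO, the value is a description and the test supports nothing. Each value is the WT minus the IRF5 KO log2 fold change, and each rests on IRF5 KO LPS DMSO, whose libraries do not stand together. Zfp651 was at 4.60, and at 5.17 without replicate 3 and −0.04 with replicate 3 as the only library of its group. Zfp213 was at −3.90 (−4.41 without replicate 3 and −3.21 with it alone), Zfp747 at −3.87 (−4.84 and −2.88), Zfp296 at −3.59 (−4.98 and −2.41) and Zfp800 at −3.44 (−3.92 and −2.77). Zfp212 was at −3.44 (−4.42 and −2.44), Zfp456 at −3.39 (−4.67 and −2.26), Zfp87 at −3.33 (−5.27 and −2.0) and Zfp790 at −3.16 (−4.92 and −1.88). Zfp429 was at −3.0 (−4.34 and −1.85), Zfp558 at −2.94 (−4.89 and −1.62) and Zfp62 at −2.85 (−4.00 and −1.75). The 11 negative values stayed negative in the 3 settings, and that of Zfp651 all but vanished with replicate 3 alone. The share of counts taken by Gm26917 divided the 3 libraries in the same way, and its part in these values was not tested.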

How the results depend on the processing

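In at least 1 comparison, counts of members called moved by over 1.5 times with fewer libraries, library size alone, no fold threshold, no filter, only the groups compared, DESeq2 and a replicate block, and the cause was not tested. Of 1918 values of 76 named results under the alternatives, 1807 kept direction and call, 110 lost the call and 1 changed sign. The last was the interaction of Zfp651, which all but vanished, at −0.045, with IRF5 KO LPS DMSO replicate 3 as the only library (chosen after seeing the data). Named results were picked as large called ones, and dropping the fold threshold cannot end a call, so the kept count is a description. For 15 results of 8 members DESeq2 gave no adjusted p, and they were left out. Depth limits members at a few CPM.

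In WT, for defactinib against DMSO, 21 members were higher without the fold threshold (28.4% of tested genes, with such shares in brackets below where given). For LPS DMSO against unstimulated cells 55 were lower without that threshold (21.2%), and 6 higher (8.27%) and 47 lower (18.1%) with library size alone. For LPS defactinib against unstimulated cells 6 were higher without the threshold (25.9%). In IRF5 KO that comparison gave 15 higher without the threshold (25.4%) and 1 with library size alone (5.22%).

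For defactinib against DMSO in IRF5 KO, 15 were lower with DESeq2 (3.37% of genes with an adjusted p), 1 with no filter (0.223%), 0 with only the groups compared (0.00706%), 2 higher (1.87%) and 5 lower (1.49%) without the fold threshold, and 2 higher (4.63%) and 86 lower (14.6%) with replicate 3 as the only library. Leaving out single libraries gave 0 to 6 higher and 0 to 34 lower. Of the IRF5 KO LPS DMSO libraries, leaving out the first gave 31 lower (5.16%), the second 34 (5.28%) and the third 0 (0.842%). It was 1 without WT LPS DMSO replicate 3 or IRF5 KO unstimulated replicate 2, and 0 without any WT unstimulated or IRF5 KO LPS defactinib library or IRF5 KO unstimulated replicate 1 or 3.

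For LPS DMSO against unstimulated cells in IRF5 KO there were 1 higher (5.75%) and 67 lower (10.8%) with library size alone, 1 higher with no filter (3.96%), 0 (1.05%) and 0 (0.0353%) with only the groups compared, 11 (18.5%) and 83 (19%) without the fold threshold, and 0 lower (0.0419%) with replicate 3 as the only library. Leaving out single libraries gave 1 to 3 higher and 3 to 105 lower, with 26 lower without IRF5 KO unstimulated replicate 2 and with 4, 3 and 105 when IRF5 KO LPS DMSO lacked replicate 1, 2 or 3.

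Between unstimulated genotypes 6 were lower without the fold threshold (7.37%). After LPS DMSO, 19 were lower with library size alone (16.8%), 6 higher with only the groups compared (10.7%), 45 higher (25.3%) and 35 lower (26.9%) without the threshold, and 5 (7.59%) and 25 (8.36%) with replicate 3 as the only library. Leaving out single libraries gave 16 (without IRF5 KO LPS DMSO replicate 1) to 76 higher (without replicate 3). For the interaction there were 19 higher (18.2%) and 38 lower (8.18%) with library size alone, 21 higher without the threshold (18.4%), and 23 (9.89%) and 40 (9.22%) with replicate 3 as the only library. Leaving out single libraries gave 7 to 13 higher and 50 to 103 lower, with 7 and 103 without IRF5 KO LPS DMSO replicate 3.

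Samples with the same replicate number did not deviate together (median correlation 0.008 over 45 pairs, 9 above 0.1). With a replicate block 0 members were lower (0.364%) for defactinib in IRF5 KO, and 1 was higher (6.81%) and 60 lower (7.45%) for LPS DMSO in IRF5 KO.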
